A study of Mus musculus with 19 samples.

Results

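Desmosomes are the junctions that couple the keratin filaments of neighbouring epithelial cells. In mouse tongue epithelium 10 genes of these junctions were followed, chosen by name with earlier results of these data known. Counts of these genes and of the lists below, set beside shares of all genes, are therefore descriptions. All 10 were found, among the 24680 genes with a value above 0 in any mouse. They are the desmogleins Dsg1a, Dsg1b, Dsg2 and Dsg3, the desmocollins Dsc1, Dsc2 and Dsc3, the plaque genes Dsp and Pkp1, and Cdsn. The desmogleins and desmocollins, 7 genes, all lie on chromosome 18, while Pkp1 lies on chromosome 1, Dsp on 13 and Cdsn on 17. RNA of whole tongue epithelia from 19 mice was sequenced at day 15 after transgene induction. The animals were between 8 and 16 weeks of age.

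The 5 E mice carried Krt14-CreERT, LSL-rtTA and tetON_E6-E7, which encodes the papillomavirus oncoproteins E6 and E7. The 3 Y mice carried Krt14-CreERT, LSL-rtTA and tetON_YAP1S127A, an active form of the transcriptional co-activator YAP. The 6 EY mice carried both effector transgenes. Of the 5 control mice (N), mice 1, 2 and 3 carried Krt14-CreERT and LSL-rtTA without an effector, mouse 4 carried LSL-rtTA without Cre, and mouse 5 carried both effectors with Krt14-CreERT but without rtTA. Per the study's methods, tamoxifen was injected into the tongue and doxycycline was given in the chow, and the lines also held an H2B-GFP reporter. The Krt14 promoter limits recombination to basal keratinocytes and their descendants, while the RNA came from the whole epithelium. Values are TPM, which give each transcript's share of a library per length, and between 8269674 and 11007304 reads per mouse were recovered from them.

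Desmogleins and desmocollins are the cadherins that bind across the gap between cells. Plakoglobin and plakophilins join their tails to desmoplakin, which holds the keratin filaments. In stratified epithelia Dsg3, Dsc2 and Dsc3 are known mainly from the lower layers and Dsg1 and Dsc1 from the upper layers, while corneodesmosin, the product of Cdsn, is added where desmosomes become the corneodesmosomes of the cornified layer.

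In EY epithelia the 4 upper-layer members Dsg1a, Dsg1b, Dsc1 and Cdsn fell and the lower-layer member Dsg3 rose, compared with N. A change was called in limma where p, adjusted by Benjamini-Hochberg over the genes tested, was under 0.01 and the fold change on the log2(TPM + 0.1) scale passed 1 in either direction. By this rule 4 of 10 members were called lower, where 5.71% of the 22745 genes tested were, and 1 was called higher, where 12.6% were. Over all genes tested, the log2 fold change in EY against N had a median of 0.33 on TPM. It was 0.01 after median-of-ratios scaling, which divides the values of a mouse by its typical ratio to the other mice and is meant below by scaling. On that scale 8.67% of genes were called lower and 6.77% higher, and the members called were again 4 lower and 1 higher. Of the 4 members listed as lower-layer, Dsg2, Dsg3, Dsc2 and Dsc3, only Dsg3 was called, and Dsc2 and Dsc3 turned negative after scaling, at -0.23 and -0.06. The median of these 4 was 0.37 on TPM and 0.0025 after scaling, close to that of all genes on both scales. In 4 members all EY mice stood below the lowest N mouse, as in 6.49% of all genes, and in 1 all stood above the highest, as in 20.9%. In bulk tissue, fewer cells of a layer and less RNA per cell cannot be told apart.

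In Y epithelia Dsg1a and Dsc1 fell and Dsg3 rose against N. These were 2 of 10 members called lower, beside 1.11% of all genes, and 1 called higher, beside 3.47%. The shares of all genes after scaling were 1.72% lower and 2.3% higher, and the median of all genes was 0.13 before scaling. In 2 members every Y mouse lay below every N mouse, as in 5.59% of all genes, and in 1 every Y mouse lay above, as in 15.5%. In E epithelia the log2 fold changes of the members lay between -0.25 (Dsg1a) and 0.29 (Dsg3), and 0 of 10 were called in limma, beside 1.2% of all genes in either direction. At an unadjusted p below 0.05 the count in E was again 0, beside 14.8% of all genes. Limma voom on the recovered reads called 0, beside 1.01% of all genes, and had 1 member at an unadjusted p below 0.05, beside 14.7%.

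**Figure D1:**
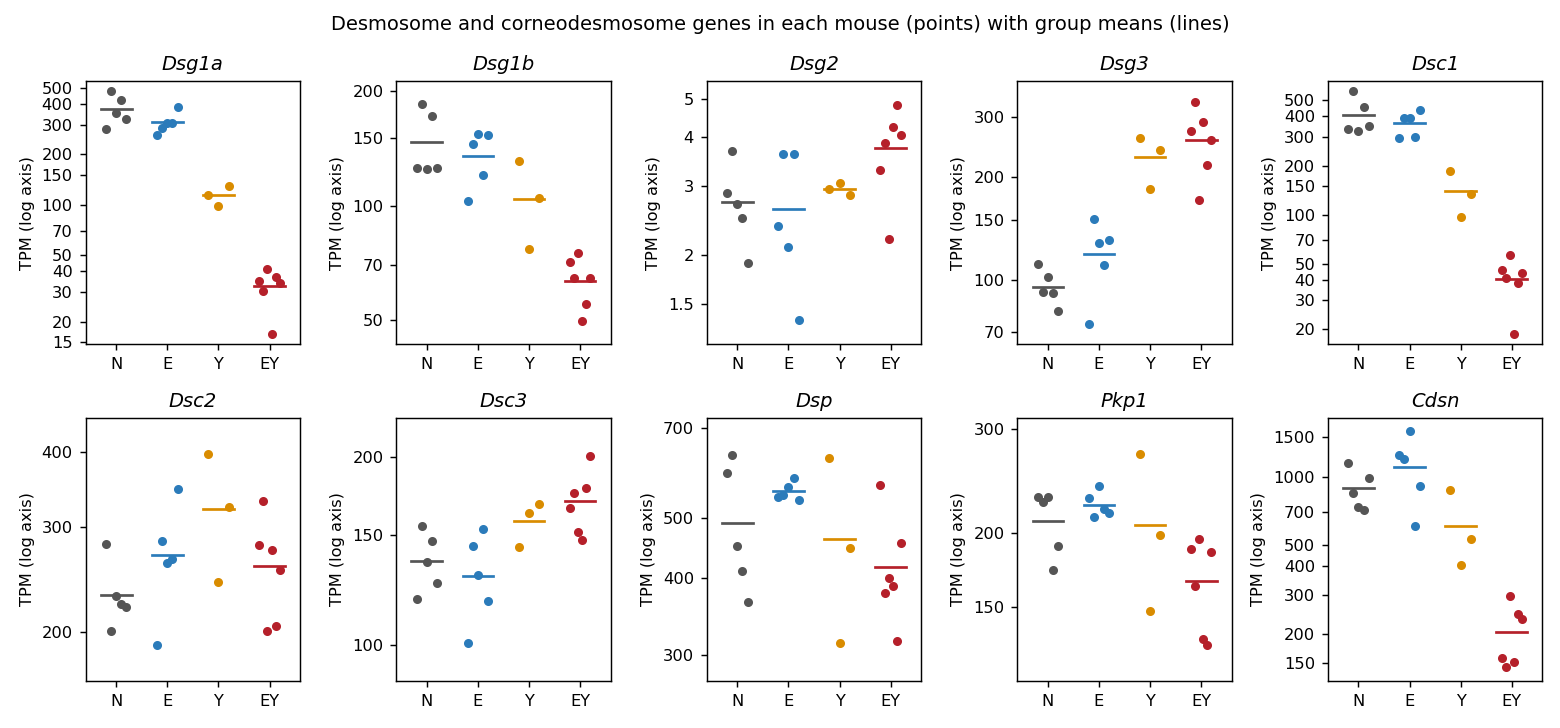
TPM of each of the 10 genes on a log axis in N, E, Y and EY epithelia, where each point is a mouse and each line a group mean. Dsg1a, Dsg1b, Dsc1 and Cdsn lie lower in every EY mouse than in any N mouse, and Dsg3 lies higher.

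Dsg1a and Dsg1b encode mouse copies of desmoglein 1, the upper-layer desmoglein. Dsg1a stood at 284, 478, 352, 422 and 324 TPM in N mice 1 to 5 and at 262, 289, 307, 309.6 and 386 TPM in E mice 1 to 5. In Y mice 1 to 3 it was at 115, 98.9 and 130.3 TPM, and the 6 EY mice ranged from 16.8 to 41.3 TPM with a median of 34.6. Neither Y nor EY mice overlapped with N mice, and every EY mouse lay below every Y mouse. The mean in EY epithelia of 32.5 TPM ± 8.46 (SD, n = 6) was 11.5-fold lower than the mean of 372 TPM ± 77.8 (SD, n = 5) in N epithelia. The log2 fold change of Dsg1a was -3.54 (95% interval -3.95 to -3.13, adjusted p = 5.67e-10) in EY and -1.68 (adjusted p = 0.000121) in Y. After scaling these values were -3.92 and -1.88.

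Dsg1b stood at 125, 184, 125, 172 and 126 TPM in N mice 1 to 5 and at 103, 145, 154, 120.0 and 153 TPM in E mice 1 to 5. The Y mice were at 131, 76.9 and 105 TPM and overlapped with N mice, while the EY mice ranged from 49.8 to 75.2 TPM with a median of 64.5. All 6 EY mice lay below the lowest N mouse. The log2 fold change of Dsg1b in EY was -1.20 (95% interval -1.54 to -0.86, adjusted p = 1.08e-05), and it was -1.57 after scaling. In Y it was -0.50 and was not called (adjusted p = 0.0915).

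The balance between both copies was lower for Dsg1a in Y and EY mice than in N and E mice. Dsg1a made up 71.7% ± 1.66 (SD, n = 5) of the summed TPM of Dsg1a and Dsg1b in N mice, 69.7% ± 2.90 (SD, n = 5) in E mice, 52.8% ± 5.28 (SD, n = 3) in Y mice and 33.4% ± 4.90 (SD, n = 6) in EY mice. These shares are ratios within a mouse, so no scaling between mice enters them. The copies are close relatives. In the GENCODE vM21 transcripts, 24.6% of the stretches of 100 bases in Dsg1a transcripts and 32.8% of those in Dsg1b transcripts recur exactly in another desmoglein or desmocollin gene, and 0 do in Dsg2, Dsg3, Dsg4, Dsc1, Dsc2 or Dsc3. How reads were divided between Dsg1a and Dsg1b is therefore uncertain.

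Dsg3, the lower-layer desmoglein and the antigen of pemphigus vulgaris, moved the other way. It stood at 111, 92.0, 102, 91.5 and 81.0 TPM in N mice 1 to 5 and at 74.3, 151, 128, 111 and 131 TPM in E mice 1 to 5. Y mice 1 to 3 were at 261, 185 and 241 TPM, and the EY mice ranged from 172 to 334 TPM with a median of 266. Every Y and EY mouse lay above every N and E mouse, while Y and EY mice overlapped. The log2 fold change of Dsg3 was 1.25 (95% interval 0.79 to 1.71, adjusted p = 0.000798) in Y and 1.41 (95% interval 1.03 to 1.79, adjusted p = 6.49e-06) in EY. After scaling, the values of 1.05 and 1.03 stayed just above the limit of 1, and under quantile normalization the value in Y was 0.96 and was not called.

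Dsg2, the desmoglein of simple epithelia, was low throughout. It ranged from 1.36 to 4.83 TPM over all mice, which rested on 101 to 341 reads, and it was called in none of the 5 pairwise comparisons. Its log2 fold change in EY was 0.43 (95% interval -0.09 to 0.95), and 0.07 after scaling.

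Together these changes reversed which desmoglein led. Dsg1a and Dsg1b made up 82.9% ± 3.44 (SD, n = 5) of the summed TPM of all desmogleins in N mice and 78.3% ± 3.12 (SD, n = 5) in E mice. The share was 48.2%, 48.2% and 49.0% in the Y mice and ranged from 18.4% to 40.1% in the EY mice, with a mean of 27.4%. Dsg3 accounted for most of the rest, from 15.7% ± 3.64 (SD, n = 5) in N mice to 71.4% ± 7.36 (SD, n = 6) in EY mice. The summed desmoglein TPM was 622 ± 106 (SD, n = 5) in N mice and 358 ± 50.2 (SD, n = 6) in EY mice.

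**Figure D2:**
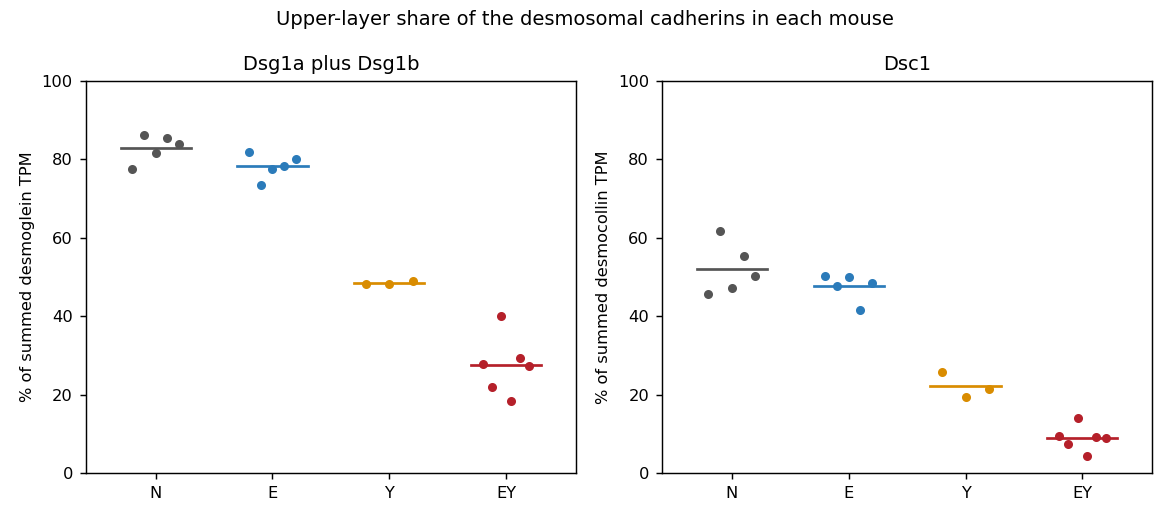
Share, in percent, of Dsg1a plus Dsg1b in the summed desmoglein TPM (left) and of Dsc1 in the summed desmocollin TPM (right), where each point is a mouse and each line a group mean. N and E mice lie highest, Y mice between, and EY mice lowest, at means of 27.4% and 8.79%.

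The desmocollins showed a like order. Dsc1, the upper-layer desmocollin, stood at 334, 572, 325, 456 and 349 TPM in N mice 1 to 5 and at 295, 391, 391, 299 and 435 TPM in E mice 1 to 5. Y mice 1 to 3 were at 186, 96.8 and 134 TPM, and the EY mice ranged from 18.6 to 56.7 TPM with a median of 42.3. No Y mouse reached the lowest N mouse, and no EY mouse reached the lowest Y mouse. The log2 fold change of Dsc1 was -3.36 (95% interval -3.88 to -2.84, adjusted p = 1.19e-08) in EY and -1.56 (95% interval -2.19 to -0.94, adjusted p = 0.0016) in Y. After scaling these values were -3.74 and -1.76. The call in Y was lost without Y mouse 2 (adjusted p = 0.0139), with only N mice 1, 2 and 3 (adjusted p = 0.0102) and with only Y and N mice in the fit (adjusted p = 0.0118). Over all alternatives its adjusted p ranged from 4.03e-05 to 0.0139.

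Dsc2 and Dsc3, the other desmocollins, were called in none of the pairwise comparisons. Dsc2 ranged from 201 to 281 TPM in N mice and from 200.5 to 332 TPM in EY mice, with a log2 fold change of 0.14 (95% interval -0.20 to 0.49) that was -0.23 after scaling. Dsc3 ranged from 118 to 155 TPM in N mice and from 147 to 201 TPM in EY mice. Its log2 fold change in EY of 0.32 (95% interval 0.08 to 0.55, adjusted p = 0.0298) was -0.06 after scaling, so its direction depended on the scaling. Within each mouse, Dsc1 made up 52.0% ± 6.56 (SD, n = 5) of the summed desmocollin TPM in N, 47.6% ± 3.50 (SD, n = 5) in E, 22.1% ± 3.23 (SD, n = 3) in Y and 8.79% ± 3.13 (SD, n = 6) in EY epithelia. Dsc2 made up 54.8% ± 6.01 (SD, n = 6) in EY epithelia.

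Desmoplakin and plakophilin 1, the plaque proteins, were measured through Dsp and Pkp1. Dsp was at 591, 631, 451, 411 and 365 TPM in N mice 1 to 5 and ranged from 316 to 566 TPM in EY mice, so the groups overlapped. Its log2 fold change in EY was -0.22 (95% interval -0.60 to 0.15, adjusted p = 0.346), and -0.60 (adjusted p = 0.00611) after scaling. Pkp1 was at 231, 226, 230, 174 and 190 TPM in N mice 1 to 5 and ranged from 129.6 to 196 TPM in EY mice. Only N mice 4 and 5 thus lay within the range of EY mice. Its log2 fold change in EY was -0.35 (95% interval -0.66 to -0.04, adjusted p = 0.0622), and -0.73 (adjusted p = 0.000248) after scaling, which is within the limit on the fold change. Over all alternatives the adjusted p ranged from 0.00191 to 0.634 for Dsp and from 5.25e-05 to 0.134 for Pkp1. Y mouse 1 had the highest Pkp1 of all mice, at 273 TPM, against 148 and 198 TPM in the other Y mice.

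On average over the 19 mice Cdsn was the most abundant member, while Dsp led in each EY mouse. Cdsn stood at 1151, 845, 735, 714 and 986 TPM in N mice 1 to 5 and at 1250.3, 1194, 1585, 605 and 905 TPM in E mice 1 to 5. Y mice 1 to 3 were at 874, 405 and 531 TPM, and the EY mice ranged from 143 to 295 TPM with a median of 195. The EY mice did not overlap with any other group, whereas Y mouse 1 lay within the range of N mice. The log2 fold change of Cdsn was -2.15 (95% interval -2.70 to -1.60, adjusted p = 3.67e-06) in EY and -0.60 (95% interval -1.27 to 0.06, adjusted p = 0.220) in Y. After scaling these values were -2.53 and -0.80.

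**Figure D3:**
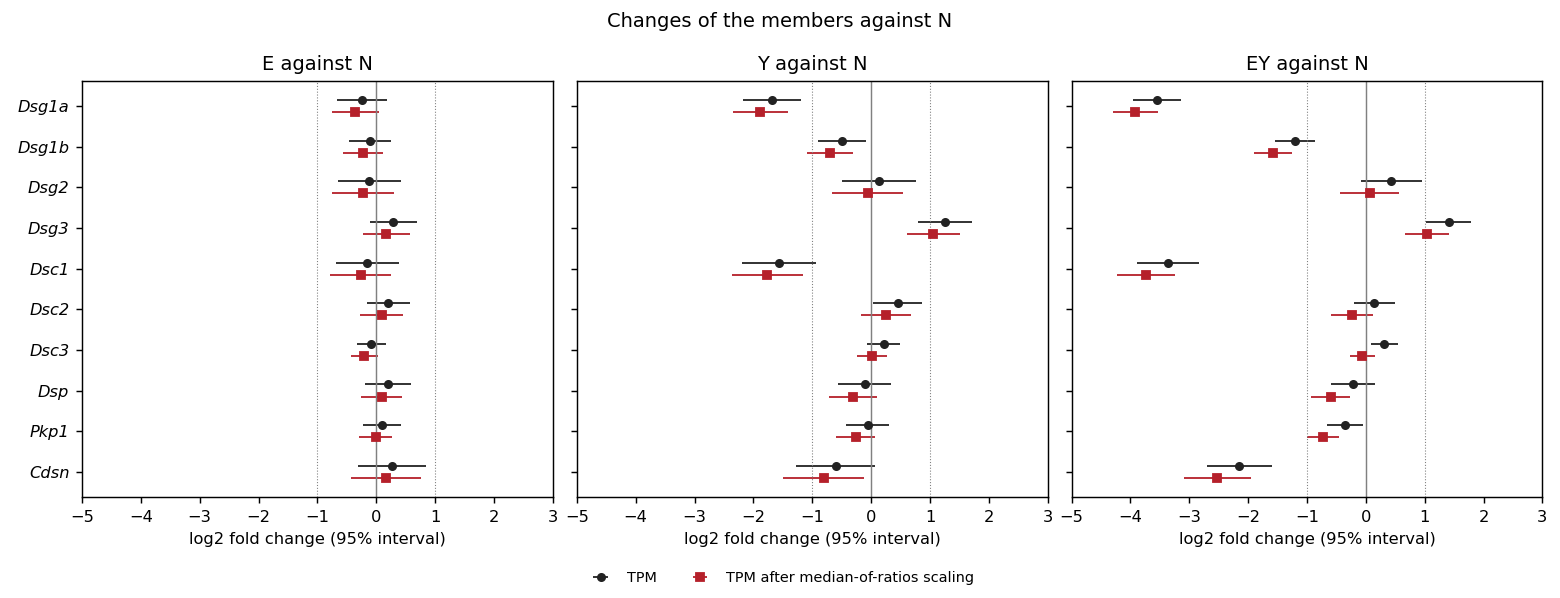
Log2 fold change of each gene against N in E, Y and EY epithelia with 95% intervals, on TPM (circles) and after median-of-ratios scaling (squares), with dotted lines at -1 and 1. In EY epithelia Dsg1a, Dsg1b, Dsc1 and Cdsn lie below -1 and Dsg3 above 1 on both scales, while Dsc2 and Dsc3 change sign with the scaling.

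Cdsn and Dsp are shown with the bases before their start sites, as the 2 of 10 members with an entry in the promoter table used here. Of these genes Cdsn fell in EY epithelia and Dsp was not called. Both sequences are from RefSeq (GRCm38.p6) and hold the 250 bases before the start, for Cdsn at the entry whose start is also that of GENCODE vM21. That of Cdsn spans chr17:35551878-35552127 and that of Dsp chr13:38151044-38151293, both on the + strand. Capitals mark CACCC, a motif of KLF factors, and GGGCGG, a motif of SP factors, on either strand.
Cdsn: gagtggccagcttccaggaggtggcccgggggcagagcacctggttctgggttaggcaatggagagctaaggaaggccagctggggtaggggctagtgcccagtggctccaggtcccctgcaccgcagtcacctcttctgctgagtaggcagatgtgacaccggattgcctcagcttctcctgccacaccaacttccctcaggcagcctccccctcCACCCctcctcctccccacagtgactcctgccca
Dsp: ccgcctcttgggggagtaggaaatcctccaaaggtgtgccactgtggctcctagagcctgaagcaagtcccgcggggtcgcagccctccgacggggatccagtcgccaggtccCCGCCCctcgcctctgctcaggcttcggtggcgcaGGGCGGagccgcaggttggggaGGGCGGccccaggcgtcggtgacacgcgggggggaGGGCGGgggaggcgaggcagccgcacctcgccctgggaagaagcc
The Cdsn stretch held CACCC at 1 place and GGGCGG at 0, and the Dsp stretch held CACCC at 0 and GGGCGG at 4. The letters GGAATG, bound by TEAD factors, and TGANTCA, bound by AP-1, were at 0 places in both. Among 32851 stretches of this length before the starts of mouse genes, 52.0% held CACCC, 32.7% GGGCGG, 12.6% GGAATG and 6.75% TGANTCA. The SP motif was added to the search after the sequences had been seen, so its count in Dsp is a description of a pattern already noticed. The letters describe these windows only.

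The comparison of EY with Y asks what E6-E7 added to active YAP. Dsg1a, Dsc1 and Cdsn were lower in EY than in Y epithelia, with log2 fold changes of -1.86 (adjusted p = 0.000134), -1.80 (adjusted p = 0.0011) and -1.54 (adjusted p = 0.00476). These were 3 of 10 members called lower, beside 0.928% of all genes (1.24% after scaling), and 0 were called higher, beside 1.07% (0.541% after scaling). In 4 of 10 members, these 3 and Dsg1b, which was not called, all 6 EY mice lay below all 3 Y mice, as in 3.37% of all genes. Without Y mouse 1, only Dsg1a was called, beside 0.515% of all genes called lower, with adjusted p = 0.0124 for Dsc1 and 0.0457 for Cdsn. The call of Cdsn was also lost without Y mouse 3 (adjusted p = 0.0178) or without EY mouse 1, 2 or 4 (adjusted p = 0.0105, 0.0115 and 0.0110), so 5 single mice decided it. With only Y and EY mice in the fit, 1 of 10 members was called, Dsg1a, beside 0.224% of all genes called lower. With mouse number as a replicate block, Dsg1a alone was called, beside 0.708% of all genes called lower. The adjusted p was then 0.0104 for Dsc1 and 0.0124 for Cdsn. Over all alternatives the adjusted p ranged from 4.47e-05 to 0.0217 for Dsc1 and from 0.000688 to 0.0457 for Cdsn. Dsg1b had a log2 fold change of -0.70 (adjusted p = 0.0278), and Dsg3 of 0.16 (adjusted p = 0.704), which was -0.02 after scaling.

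The comparison of EY with E asks what active YAP added to E6-E7. Dsg1a, Dsg1b, Dsc1 and Cdsn were lower in EY than in E epithelia, with log2 fold changes of -3.29, -1.08, -3.21 and -2.42, and Dsg3 was higher at 1.12 (adjusted p = 9.69e-05). These were 4 of 10 members called lower, beside 4.99% of all genes (6.91% after scaling), and 1 called higher, beside 7.82% (4.4% after scaling). The call of Dsg3 did not pass the limit after scaling, at 0.86, nor with voom, at 0.86, nor without E mouse 1, at 0.96.

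The interaction asks whether the change with both transgenes differed from the sum of the single changes. By limma it called 0 of 10 members, beside 0.176% of all genes, while 4 members had an unadjusted p below 0.05, beside 13.5% of all genes. The log2 values were -1.61 for Dsg1a (95% interval -2.25 to -0.97, adjusted p = 0.0183), -1.65 for Dsc1 (adjusted p = 0.0546), -1.82 for Cdsn (adjusted p = 0.0467) and -0.58 for Dsg1b (adjusted p = 0.319). After scaling Dsg1a was called (adjusted p = 0.00957), beside 0.171% of all genes, and limma voom called Dsg1a and Dsc1, beside 0.51%. Over all alternatives the adjusted p of Dsg1a ranged from 0.000925 to 0.0657. It was called without EY mouse 3 (adjusted p = 0.00977) and without EY mouse 4 (adjusted p = 0.00414).

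The other desmosome genes are a list of 9, of which Dsg1c was too low to test. In EY epithelia 2 of the 8 tested were called higher and 1 lower, beside 12.6% and 5.71% of all genes, while 5 were not called. After scaling 1 was called higher and 1 lower, beside 6.77% and 8.67% of all genes. The median log2 fold change of the list in EY was -0.16, beside 0.33 for all genes, and -0.54 beside 0.01 after scaling. Pkp2, a plakophilin of simple epithelia and heart, rose from 0.0959 to 0.276 TPM in N mice to between 1.5 and 4.51 TPM in EY mice (log2 fold change 3.37, adjusted p = 5.42e-07). Its level in N mice rested on 10 to 28 reads, and the added 0.1 TPM understates the change of so low a gene. Dsg4, the desmoglein of hair, fell from 2.44 to 10.9 TPM in N mice to between 0.0187 and 0.432 TPM in EY mice (log2 fold change -4.17, adjusted p = 2.07e-06). Its level in EY mice rested on 1 to 26 reads, and the added 0.1 TPM bears on this fold change too.

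Pkp4, a relative of the plakophilins, was at 1.73 to 2.35 TPM in N mice and 3.91 to 4.77 TPM in EY mice. Its log2 fold change of 1.03 (adjusted p = 5.48e-06) was 0.66 after scaling, 0.71 after quantile normalization, 0.68 with voom, 0.79 with a pseudocount of 1 TPM, 0.99 with only N mice 1, 2 and 3 or with the replicate block, 0.97 without N mouse 5 and 0.99 without EY mouse 6, and was not called in any of these. Pkp2 and Dsg4 were also called in Y epithelia, at 2.09 (adjusted p = 0.00238) and -2.65 (adjusted p = 0.00468), and neither call held with only Y and N mice in the fit (adjusted p = 0.0364 and 0.0226), with only N mice 1, 2 and 3, or without Y mouse 2 (0.0186 and 0.0114) or Y mouse 3 (0.0254 and 0.0158). The call of Pkp2 was also lost with a pseudocount of 1 TPM. That of Dsg4 was also lost with the replicate block, without N mouse 2 (adjusted p = 0.0108), without N mouse 4 (0.0133) and without Y mouse 1 (0.0324). Jup, Pkp3, Perp, Evpl and Ppl were not called in any comparison, which does not mean that they were unchanged. At an unadjusted p below 0.05 limma had 4 of the 8 genes tested in EY against N, 7 against E and 6 against Y. Limma voom had 8 in each, and the share of all genes at this p was not taken for these comparisons. Perp, a membrane protein of desmosomes, was the most abundant of the list, at 1781 to 2142 TPM in N mice and 1633 to 1839 TPM in EY mice.

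Adherens junctions, which couple cells through classical cadherins and actin, were followed by a list of 12 genes. In EY epithelia 5 of 12 were called higher, beside 12.6% of all genes, and 0 lower, beside 5.71%. The list median was 0.57, beside 0.33 for all genes. After scaling 2 of 12 were called higher, beside 6.77% of all genes, with a median of 0.20 beside 0.01. The 5 were Cdh1, Cdh3, Vcl, Nectin2 and Ajuba. E-cadherin, encoded by Cdh1, was at 12.6 to 20.1 TPM in N mice and 27.6 to 50.1 TPM in EY mice (log2 fold change 1.16, adjusted p = 9.95e-06). The value for Cdh1 was 0.78 after scaling, 0.75 after quantile normalization, 0.78 with voom and 0.94 with only N mice 1, 2 and 3, and was not called in any of these. P-cadherin, encoded by Cdh3 and known from basal cells, was at 1.04 to 2.22 TPM in N mice and at least 5.55 TPM in each EY mouse (log2 fold change 2.19, adjusted p = 7.50e-08). Vcl and Ajuba stood at 0.85 and 0.91 after scaling, at 0.85 and 0.90 after quantile normalization and at 0.85 and 0.91 with voom, so Cdh3 and Nectin2 were the 2 called on both scales. In Y epithelia 3 of 12 were called higher, Cdh3, Nectin2 and Ajuba, beside 3.47% of all genes, and 2 after scaling, beside 2.3%. With only Y and N mice in the fit, none of these 3 was called in Y (adjusted p = 0.0141, 0.0119 and 0.0113). Ajuba in Y was also not called without N mouse 4 (log2 fold change 0.97), N mouse 5 (0.97) or Y mouse 3 (0.95), with only N mice 1, 2 and 3 (0.87), with the replicate block (0.95), after scaling (0.84), after quantile normalization (0.72) or with voom (0.83). By limma, 0 were called in E epithelia, beside 1.2% of all genes in either direction.

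**Figure D4:**
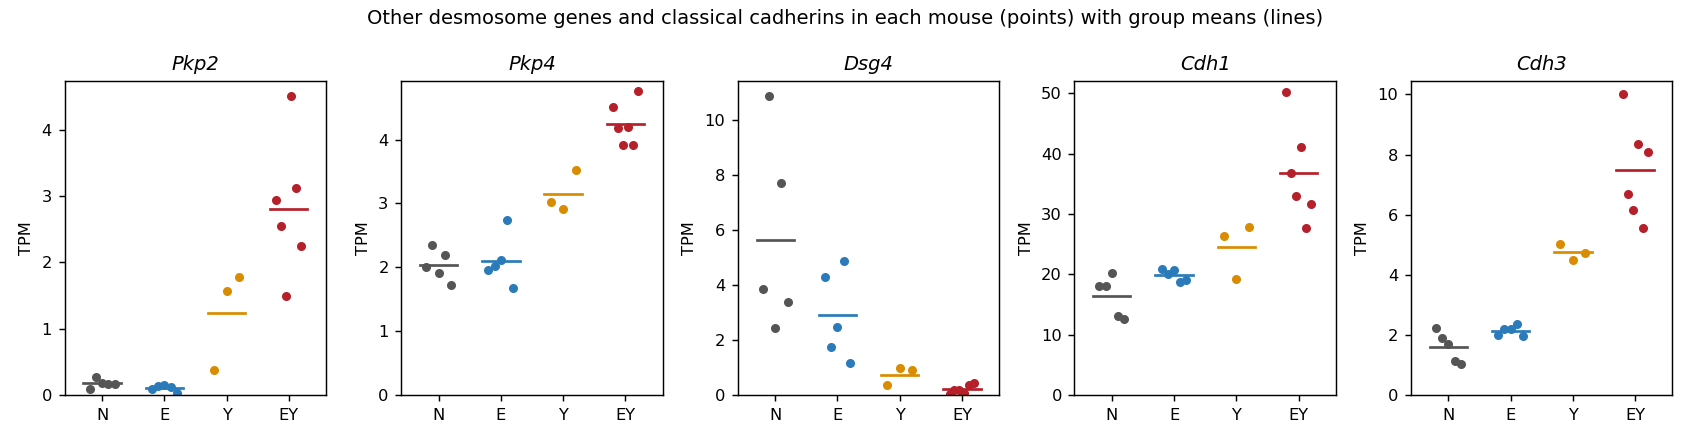
TPM of Pkp2, Pkp4, Dsg4, Cdh1 and Cdh3 in N, E, Y and EY epithelia, where each point is a mouse and each line a group mean. Each EY mouse lies above each N mouse for Pkp2, Pkp4, Cdh1 and Cdh3, and below each N mouse for Dsg4.

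Genes of the cornified layer fell alongside the upper-layer members. In EY epithelia 6 of 8 were called lower, beside 5.71% of all genes, and 0 higher, with a list median of -3.40. In Y epithelia 2 of 8 were called lower, Flg and Krt10, beside 1.11% of all genes. The call of Flg in Y was lost with only Y and N mice in the fit (adjusted p = 0.0188) and without N mouse 2 (0.01002), Y mouse 2 (0.0167) or Y mouse 3 (0.0388). That of Krt10 in Y was lost with only N mice 1, 2 and 3 (adjusted p = 0.0126) and without Y mouse 3 (0.0120). Their summed level was 8985 to 13388 TPM in N mice and 2157 to 4200.2 TPM in EY mice. Krtdap was the most abundant gene of the list in all 6 EY mice, while Lor led in 4 of 5 N mice. Krt10, a keratin of suprabasal cells, had a log2 fold change of -5.73 (adjusted p = 3.12e-09) in EY. Of the 8 genes of tongue epithelium, Krt14 and Epcam were called higher and Krt15, Krt13 and Krt4 lower in EY epithelia. The call of Krt15 was lost with only N mice 1, 2 and 3 (adjusted p = 0.0175) and with the replicate block (0.0101). All 8 were expressed in all groups, and Krt13 had the highest mean over the 19 mice at 48941 TPM, though Krt14 led in 2 of 6 EY mice. The part of a change in the share of upper-layer cells in the fall of the members was not tested.

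Markers of other tissues differed between mice. For the counts below, 12.6% of all genes were called higher and 5.71% lower in EY against N. The 9 skeletal muscle genes summed to between 22.1 and 300.1 TPM in N mice and between 69.8 and 1559 TPM in EY mice, with Acta1 or Tnni2 as the most abundant gene in each mouse and the highest sum in EY mouse 3, and 1 of 9, Tnni2, was called higher in EY and 0 after scaling. The call of Tnni2 was also lost without N mouse 1, 3 or 4 (adjusted p = 0.0112, 0.0148 and 0.0135), with only N mice 1, 2 and 3 (0.0348), with only EY and N mice in the fit (0.0127), with the replicate block (0.0115), after quantile normalization (0.0238) and with voom (0.0144). The median log2 fold change of these 9 genes was 1.79 in EY against N, 2.29 against E and 2.72 against Y. For all genes these medians were 0.33, 0.26 and 0.18. At an unadjusted p below 0.05 limma had 2 of 9 in EY against N, 8 against E and 6 against Y. The share of all genes at this unadjusted p was not taken for comparisons of EY, so such counts here and below have no background. At an adjusted p below 0.01 with no limit on the fold change, limma had 31.9%, 25.3% and 3.53% of all genes in these 3 comparisons. Without EY mouse 3 the members called in EY against N again numbered 5. In the same mouse the share of Dsg1a plus Dsg1b was the highest of the EY mice, and without it the mean share was 24.9% and that of Dsc1 7.77%.

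The 6 fibroblast genes summed to 61.5 to 293 TPM in N mice, 23.8 to 44.1 TPM in Y mice and 24.2 to 153 TPM in EY mice. Of these 6, 1 was called lower in EY, Dcn, and 0 higher. Their median log2 fold change was nevertheless 0.39 in EY against N, 0.82 against E and 2.00 against Y. For all genes these medians were 0.33, 0.26 and 0.18. The 6 leukocyte genes, mostly Cd68, summed to 144 TPM in N mouse 1, to between 23.7 and 44.7 TPM in the other N mice and to between 63.9 and 92.1 TPM in EY mice. Thus every EY mouse lay above 4 of the 5 N mice, while limma called 0 of 6 genes, with 1 at an unadjusted p below 0.05, and voom called 0. The 5 endothelial genes summed to at most 5.45 TPM in any EY mouse, with 1 of 4 tested, Tie1, called higher in EY and 0 after scaling. The call of Tie1 was also lost without N mouse 4 or 5 (adjusted p = 0.0179 and 0.0175) or without EY mouse 1, 2 or 3 (0.0132, 0.0104 and 0.0130). It was lost as well with only N mice 1, 2 and 3 (log2 fold change 1.17, adjusted p = 0.0773), with only EY and N mice in the fit (0.0110), after quantile normalization (0.0111), with voom (0.0181) and with a pseudocount of 1 TPM (log2 fold change 0.75). Salivary gland and Schwann cell genes summed to at most 6.44 and 11.4 TPM in EY mice, with 0 called in both lists on TPM. After scaling 1 of the 3 salivary gland genes tested, Muc5b, was called lower in EY. At an unadjusted p below 0.05 limma had 1 salivary gland and 0 Schwann cell genes, and voom called 1 and 0. In N mice the sums reached 77.7 and 17.9 TPM. The part of these cells in the results was not tested.

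Among 15583 other genes with a mean of at least 1 TPM, those most like Cdsn over the 19 mice were Smpd3 (Pearson r = 0.978), Lor (0.975) and Gm44618 (0.971). Those most like Dsg3 were Slc20a1 (0.970), Pdhx (0.968) and Rad23b (0.966). The mice fall into 4 groups that differ in level, and these values were not corrected for that, so they are a description. Slc20a1, a phosphate transporter gene, was at 15.6 to 20.2 TPM in N mice and 50.0 to 106 TPM in EY mice.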

How the data were processed

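The tongue epithelia of 19 mice were grouped by their labels. According to the methods, the authors aligned reads to GRCm39 with STAR 2.7.9, sorted them with SAMtools 1.7 and counted them per gene with HTSeq 0.13.5. The authors deposited the values as TPM, and how counts became TPM is not given in the sources used here. The methods describe Kallisto and TPM for gene set enrichment, without saying that these are the deposited values. Whole reads were recovered from TPM for 24680 of 24680 genes above 0 (within 0.01 of a whole number). The 22745 genes that reached 0.1 TPM in 3 or more mice entered limma (version 3.58.1, R 4.3.3, eBayes with a trend) on log2(TPM + 0.1), in 1 model of 4 group means, with Benjamini-Hochberg adjustment over all genes tested. All 10 members passed the filter. Alternatives were another pseudocount, 2 other filters, 2 other scalings, only N mice 1, 2 and 3, only the groups compared, a replicate block, limma voom on reads, 2 other thresholds and leaving out each mouse in turn. Leaving out mice for the shares was added after seeing the data. Alternatives were run for all members, and for genes of the other lists where they had been called. The members and lists were chosen with earlier results of these data known. Named genes are the members, genes of fixed lists, and for Cdsn and Dsg3 the 3 genes of highest Pearson r. Descriptions and figures used Python 3.11.15, pandas 2.3.3 and matplotlib 3.10.9.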

Additional observations from a re-analysis of the deposited data

Results flagged for a closer look

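The members, in 30 groups of 5 or 6 mice, held no mouse whose gap to its neighbour exceeded Dixon's 95% critical value. The members and a few shares were examined first, and the other junction genes, the marker sums and the rest of 14 shares, sums and ratios of members were added after that. Of the 156 groups in all, 8 held such a mouse, and chance gives about 1 in 20. Dsg1a made up 53.8% of the summed desmoglein TPM in N mouse 1, beside 60.4% to 62.2% in the other N mice. Nectin2 was at 2.96 TPM in N mouse 2, beside at most 1.78 TPM in the other N mice. The skeletal muscle genes summed to 300.1 TPM in N mouse 2, 173 TPM in E mouse 5 and 1559 TPM in EY mouse 3, beside at most 81.5, 54.0 and 309 TPM in the others of each group. The leukocyte genes summed to 144 TPM in N mouse 1, the salivary gland genes to 5.90 TPM in E mouse 2 and the Schwann cell genes to 11.4 TPM in EY mouse 6, beside at most 44.7, 1.46 and 6.09 TPM in the others of each group.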

How the results depend on the processing

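Of 1790 log2 fold changes of members under alternatives, 1738 kept their direction and their side of the threshold, 17 were no longer called, 9 were newly called and 26 changed sign, all of the last in members that were not called. Of 1499 values of called genes of the other lists, 108 were no longer called and 0 changed sign. The interaction called 1 member after median-of-ratios scaling (0.171% of all genes), 1 after quantile normalization (0.237%), 2 with voom (0.51%) and 2 at an adjusted p below 0.05 (0.651%). EY against Y called 1 with only the groups compared, where 198 genes were called in all, and 1 with mouse number as a replicate block, where 320 were, against 3 members and 454 genes before. Leaving out 1 mouse gave 1 to 3 members in EY against Y, beside 0.881% to 2.2% of all genes, and 4 to 5 in EY against E, beside 11.4% to 13.4%. In Y against N it gave 2 to 3, beside 2.81% to 4.58%, and in the interaction 0 to 1, beside 0.123% to 0.322%. No pairing of mice by number was assumed. The correlations of same-numbered mice, after removing group means, were between -0.043 and 0.076, and a mouse correlated best with its own number in 17 of 48 cases, where an even spread over the mice gives 10.4. The causes were not tested. Depth limits the low genes: Dsg2 rested on 101 to 341 reads, Pkp2 in N mice on 10 to 28 and Dsg4 in EY mice on 1 to 26.

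Signs changed as follows. After median-of-ratios scaling and with voom, Pkp1 in E was -0.0138 and -0.0149, Dsg2 in Y -0.0562 and -0.071, Dsc2 in EY -0.23 and -0.23, Dsc3 in EY -0.0615 and -0.0639, and in EY against Y Dsg3 was -0.0226 and -0.0199 and Dsc3 -0.0789 and -0.0777. Quantile normalization gave -0.0563 for Pkp1 in E, -0.00556 for Dsg2 and -0.0814 for Dsc3 in Y, -0.0644 for Dsc2 in EY and 0.0488 for Dsg3 in the interaction. With only N mice 1, 2 and 3, Dsp in E was -1.63e-05, Pkp1 in E -0.0333 and Dsg2 in Y -0.0535. Leaving out 1 mouse gave -0.25 to 0.0852 for Dsg2 in E (highest without E mouse 5), -0.355 to 0.14 for Dsp in Y and -0.284 to 0.16 for Pkp1 in Y (both highest without Y mouse 2), -0.365 to 0.13 for Dsp in EY against Y (highest without Y mouse 1) and -0.18 to 0.0361 for Dsc2 in EY against E (highest without E mouse 5, and 0.00587 without EY mouse 3).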
